A study of Mus musculus with 135 samples.

Results

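Autophagy genes were examined in single haematopoietic stem cells (HSCs) of a young and an old mouse. The set held the genes of the count table whose symbol is Atg followed by a digit, which were 17, and 21 further genes named one by one, all of which were present (*Ulk1*, *Ulk2*, *Becn1*, *Pik3c3*, *Pik3r4*, *Uvrag*, *Map1lc3a*, *Map1lc3b*, *Gabarap*, *Gabarapl1*, *Gabarapl2*, *Sqstm1*, *Nbr1*, *Optn*, *Wipi1*, *Wipi2*, *Rb1cc1*, *Ambra1*, *Tfeb*, *Lamp1* and *Lamp2*). This gave 38 of the 15181 genes measured. The rule itself uses gene symbols only.

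The cells were bone marrow HSCs of C57BL/6 mice that carried a Vwf-eGFP reporter, a transgene that places green fluorescent protein under control of the von Willebrand factor gene, at both ages. They were sorted as 7AAD-Lin-Sca-1+c-Kit+CD150+CD48- and captured singly on a microfluidic chip. The young mouse was 2 to 3 and the old mouse 20 to 25 months old, and the table holds 61 young and 74 old cells, of which the 52 and 62 that the study kept after quality control were used. Each age was 1 mouse on 1 capture run, so cells are not replicates of an age, and differences are given as sizes without a p-value.

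Between 273236 and 5688706 reads were counted per kept young cell and between 276316 and 4086659 per kept old cell, and no pair of cells had identical counts. Counts were scaled to 1000000 counted reads in each cell (CPM). A gene's level is its log2(CPM + 1) averaged over cells, a difference is the old level minus the young level on this scale, and a cell expressed a gene where log2(CPM + 1) exceeded 2. Among stem cell markers, *Kit* was expressed in 49 young and 61 old cells and *Gata2* in 45 and 62, but *Slamf1*, which encodes the sorting marker CD150, in only 9 and 15, *Procr* in 11 and 24, *Tek* in 13 and 11 and *Fgd5* in 6 and 14. Of these, *Gata2* was itself higher in the old cells by 2.39, while *Cd48* was expressed in 1 young and no old cell. Sex-linked genes separated the ages as well: *Xist* was expressed in 50 young and 8 old cells, and a Y-linked gene in 2 and 58. The exceptions were at low values. *Xist* reached at most 3.69 in old cells, against a young median of 9.87. In the 2 young cells the Y-linked gene was *Uty*, which reached at most 2.45. Age, mouse, sex-linked genes and capture run cannot be told apart here. A gene of the cell cycle (*Ccna2*, *Ccnb1*, *Cdk1* or *Cdc25c*) was expressed in 27 young and 13 old cells.

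Autophagy encloses cytoplasm in a double membrane, the autophagosome, and delivers it to the lysosome for breakdown. The ULK kinase complex starts the process, a class III PI3 kinase marks the growing membrane, a conjugation cascade attaches proteins of the LC3 and GABARAP family to it, cargo receptors bind those proteins, and the lysosome digests the content. Autophagy is known to be needed for the maintenance of HSCs, in which it limits the number of mitochondria.

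Sequences before the start sites are shown because *Lamp1* and *Lamp2*, which encode the major lysosomal membrane proteins, had differences of opposite sign (-0.99 and 1.002). Whether the letters in these sequences bear on any age difference was not tested. The letters searched were CACGTG, an E-box that reads the same on both strands and forms the core of the element bound by TFEB and its relatives. Promoters of 300 bases (250 before to 50 after the start, RefSeq, GRCm38.p6) were found for 32 of the 38 genes. The capitals mark CACGTG. Those shown are *Lamp1* (chr8:13158911-13159210, plus strand), *Lamp2* (chrX:38456411-38456710, minus strand) and *Atg3* (chr16:45158579-45158878, plus strand), together with *Sqstm1* (chr11:50210771-50211070, minus strand) and *Map1lc3b* (chr8:121590188-121590487, plus strand), which had the largest differences among the 38 genes.
Lamp1: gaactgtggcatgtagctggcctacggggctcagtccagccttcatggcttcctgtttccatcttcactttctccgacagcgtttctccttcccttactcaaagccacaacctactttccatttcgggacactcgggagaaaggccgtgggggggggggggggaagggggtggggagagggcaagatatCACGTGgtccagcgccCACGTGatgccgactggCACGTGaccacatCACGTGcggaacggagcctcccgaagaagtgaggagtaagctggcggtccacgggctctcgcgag
Lamp2: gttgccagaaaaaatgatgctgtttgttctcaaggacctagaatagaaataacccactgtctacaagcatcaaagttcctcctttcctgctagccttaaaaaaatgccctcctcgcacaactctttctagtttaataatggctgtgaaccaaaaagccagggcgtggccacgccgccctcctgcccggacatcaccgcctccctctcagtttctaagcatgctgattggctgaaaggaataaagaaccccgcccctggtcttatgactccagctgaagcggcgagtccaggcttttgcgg
Atg3: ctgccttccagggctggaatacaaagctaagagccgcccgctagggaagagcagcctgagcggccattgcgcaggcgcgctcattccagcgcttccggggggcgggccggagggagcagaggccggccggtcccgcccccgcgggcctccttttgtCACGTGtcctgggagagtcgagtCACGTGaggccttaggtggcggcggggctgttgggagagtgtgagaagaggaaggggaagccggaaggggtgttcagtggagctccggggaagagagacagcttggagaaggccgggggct
Sqstm1: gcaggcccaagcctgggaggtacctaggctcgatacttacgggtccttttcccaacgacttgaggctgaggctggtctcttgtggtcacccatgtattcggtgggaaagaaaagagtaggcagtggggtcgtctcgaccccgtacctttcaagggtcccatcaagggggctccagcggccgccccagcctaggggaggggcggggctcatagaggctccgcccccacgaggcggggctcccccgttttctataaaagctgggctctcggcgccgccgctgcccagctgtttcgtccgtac
Map1lc3b: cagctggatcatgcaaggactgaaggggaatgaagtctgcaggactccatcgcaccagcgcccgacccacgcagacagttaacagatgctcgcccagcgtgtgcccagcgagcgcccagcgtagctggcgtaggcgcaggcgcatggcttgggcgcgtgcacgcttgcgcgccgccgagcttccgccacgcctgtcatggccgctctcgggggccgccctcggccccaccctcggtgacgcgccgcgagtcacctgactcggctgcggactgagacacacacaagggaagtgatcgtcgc

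The *Lamp1* window holds CACGTG 4 times, with first bases at -61, -45, -28 and -15, where -1 is the last base before the start. Of all 32851 promoter windows, 7.15% hold it at least once and 8 windows (0.0244%) hold it at least 4 times. The *Atg3* window holds it at -94 and -71, and the match at -71 lies within the longer TCACGTGA, which is in 0.974% of all windows and in no other window of the set. *Atg5*, *Atg7* and *Atg14* hold CACGTG once each, so that 5 of the 32 genes hold it (15.6%), against 8.09% of the 27025 genes with a window. The *Lamp2*, *Sqstm1* and *Map1lc3b* windows do not hold these letters. Of the other letters searched on both strands, the AP-1 motif TGANTCA (7.81% of all windows) and the FoxO motif GTAAACA (3.65%) were in no window of the set, and the antioxidant element TGANNNNGC was in 20 of its 37 windows (54.1%) and in 41.3% of all windows.

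Across the set, 4 genes were higher in the old cells by at least 1 on the log2 scale, *Sqstm1*, *Map1lc3b*, *Gabarap* and *Lamp2*, and 1 was lower by at least 1, *Atg4c*. These are 10.5% and 2.63% of the 38 genes. Of all 15014 genes with a read in a kept cell, 3.91% were higher and 4.49% lower by this rule. The median difference of the 38 genes was 0.15, with 22 above and 16 below 0, and that of all genes with a read was -0.02. Of the 38, 32 were expressed in at least 10% of the kept cells, among them all 5 that reached the limit, with a median difference of 0.20. Of the 9374 genes that met this minimum, 6.24% were higher and 6.98% lower, and their median was -0.07. The set holds 2 X-linked genes, *Lamp2* and *Atg4a*, whose age difference cannot be told apart from the difference in sex-linked genes. Without the 2 young and 8 old cells that expressed sex-linked genes against the rest of their age, the differences were 2.14 for *Sqstm1*, 1.43 for *Map1lc3b*, 1.15 for *Gabarap*, 0.89 for *Lamp2* and -1.66 for *Atg4c*. Those cells expressed the sex-linked genes in question at log2(CPM + 1) of at most 3.69.

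**Figure D1:**
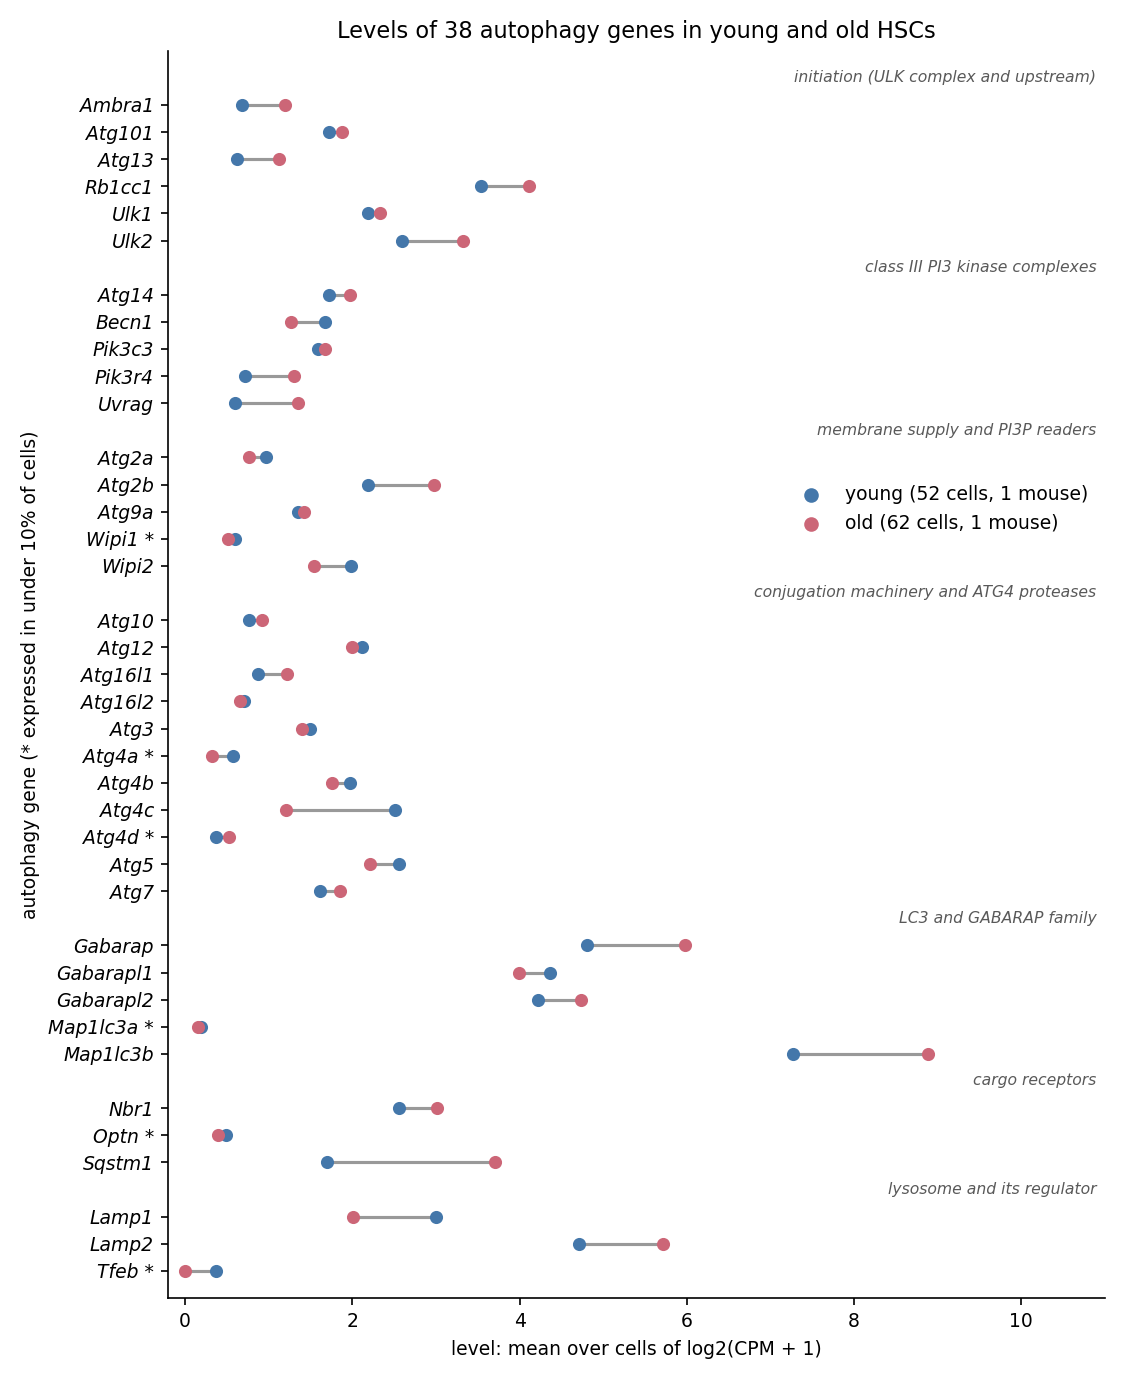
Levels of the 38 genes as mean log2(CPM + 1) over 52 young (blue) and 62 old (red) cells, grouped by role, with a grey line joining the ages. The longest lines are those of Sqstm1 (2.01), Map1lc3b (1.62), Atg4c (-1.30) and Gabarap (1.16), and 6 genes marked with an asterisk were expressed in fewer than 10% of cells.

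The cargo receptor *Sqstm1* (chr11:50200152-50210820, GRCm38) had the largest difference of the set. Its product, p62, binds ubiquitinated cargo and LC3 and is itself broken down by autophagy. In the 52 young cells log2(CPM + 1) of *Sqstm1* had a lowest value and a median of 0 and a highest value of 9.67. In the 62 old cells the lowest value was 0, the median 2.07 and the highest 10.98. The ages overlapped over almost the whole range, and the old cells differed mainly in how many carried the transcript. *Sqstm1* was expressed in 13 young cells (25%, 95% interval 14.03 to 38.95) and 31 old cells (50%, 37.02 to 62.98). Intervals of shares are exact Clopper-Pearson intervals and cover counting error only. The level rose from 1.69 to 3.71, a difference of 2.01, while among expressing cells the means were 6.29 and 6.62. At least 1 read was counted in 21 young and 55 old cells, so 8 young and 24 old cells had reads below the limit for expressing.

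*Nbr1*, a second receptor of ubiquitinated cargo, was expressed in almost equal shares, 25 young (48.1%) and 30 old cells (48.4%), at levels of 2.56 and 3.01. *Sqstm1* and *Nbr1* were expressed together in 8 young and 13 old cells. *Sqstm1* without *Nbr1* was found in 5 young and 18 old cells. *Optn*, a receptor known from the removal of bacteria and mitochondria, was expressed in only 3 young and 4 old cells (levels of 0.49 and 0.39), with 92.8% of its young reads in 1 cell.

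The LC3 and GABARAP family held the 3 highest levels per length of the set. These small ubiquitin-like proteins are attached to the lipid of the autophagosome membrane, where cargo receptors bind them. Every kept cell, 52 of 52 young and 62 of 62 old, expressed at least 1 of the 5 family genes. Counted reads per kilobase of merged exons put *Map1lc3b* first of the 38 genes at both ages, with a mean of 118 CPM per kb in young and 191 in old cells. *Gabarapl2* (89.6 in young, 112 in old) and *Gabarap* (77.3 and 115) followed, in reversed order in the old cells.

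*Map1lc3b* (chr8:121590438-121598760) encodes LC3B, the family member most used as a marker of autophagosomes. Its log2(CPM + 1) in young cells had a lowest value of 0, a median of 7.63 and a highest value of 11.26. In old cells the lowest value was 1.497, the median 9.80 and the highest 11.93. The ages overlapped, and the old cells were gathered towards the top of the range. *Map1lc3b* was expressed in 45 young cells (86.5%, 74.2 to 94.4) and 59 old cells (95.2%, 86.5 to 99.0), and its mean among expressing cells was 8.28 in young and 9.25 in old. The level rose from 7.27 to 8.89, a difference of 1.62, so that both the share of cells and the level within them were higher. As a log2 ratio of counts summed over cells the difference was 0.83, since cells with high values weigh more in that ratio. *Map1lc3b* overlaps *Zcchc14* in RefSeq, and no strand setting is given for the counting.

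*Gabarap* (chr11:69991370-69994949), the founding member of the GABARAP branch, showed a smaller shift. In young cells its log2(CPM + 1) ran from 0 through a median of 6.03 to 9.39. In old cells it ran from 0 through a median of 6.71 to 9.39. The highest values were thus equal and cells near 0 were fewer in the old. *Gabarap* was expressed in 38 young cells (73.1%, 58.98 to 84.43) and 55 old cells (88.7%, 78.1 to 95.3), with means among expressing cells of 6.43 and 6.67. Its level rose from 4.81 to 5.98, a difference of 1.16. In cells that expressed no cell cycle gene, 25 young and 49 old, this difference was 2.25. It was 0.91 in the 58 young and 70 old cells under wider quality limits and 0.64 as a ratio of summed counts, below the limit in both cases.

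The other family genes did not reach the limit. *Gabarapl2* had levels of 4.22 and 4.74 and was expressed in 32 young (61.5%) and 38 old cells (61.3%). *Gabarapl1*, which was expressed in more young cells than any other GABARAP gene, went the other way with levels of 4.37 and 3.999 and 42 young (80.8%) and 45 old (72.6%) expressing cells. *Map1lc3a*, which encodes LC3A, was expressed in 1 young and 2 old cells. The family was therefore carried by 4 genes at both ages. Cells expressing 4 family genes numbered 19 of 52 young and 23 of 62 old, those expressing 3 numbered 18 and 27, and those expressing only 1 numbered 2 and 1. *Map1lc3b* and *Gabarap* were expressed together in 35 young and 52 old cells. Gene copies of near-identical sequence could share reads in this family, and the counting as described does not separate them.

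**Figure D2:**
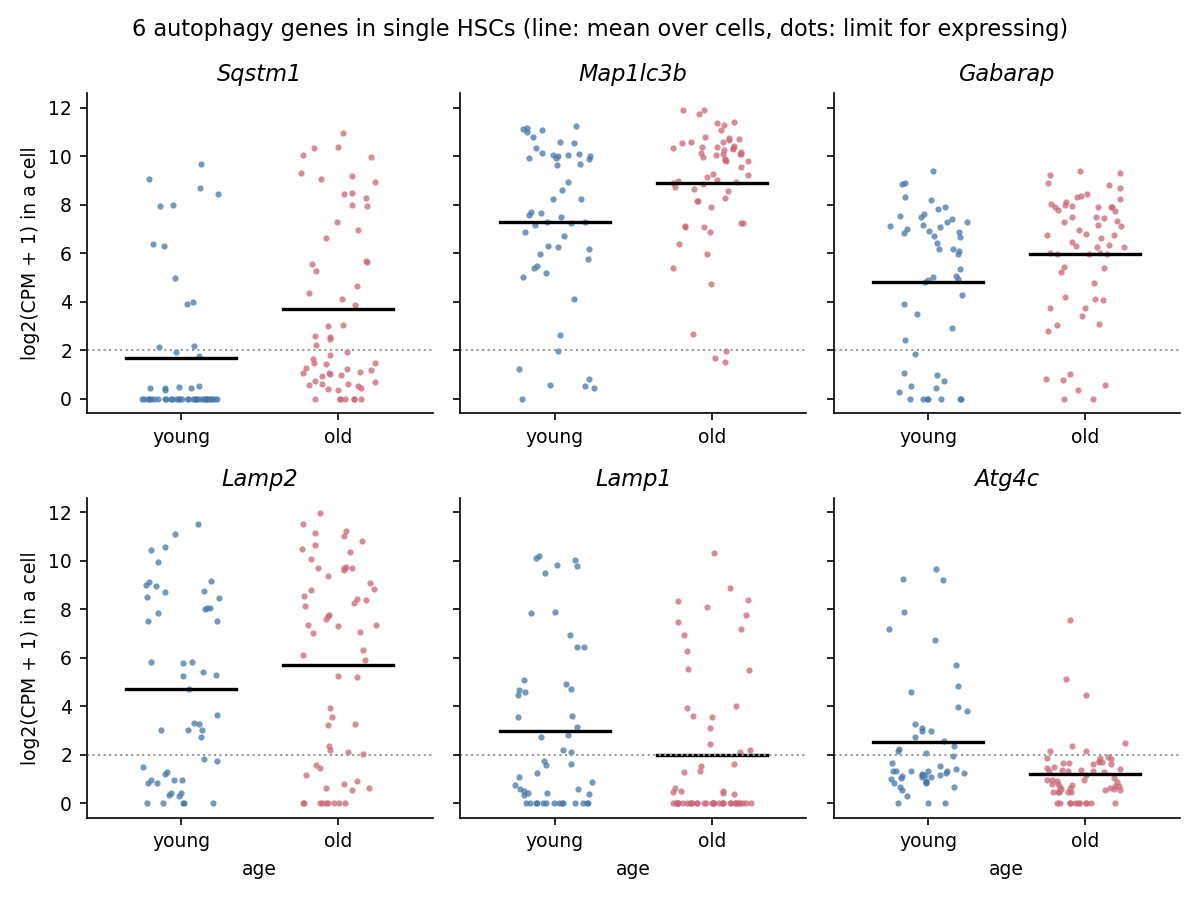
Values of log2(CPM + 1) in every kept cell for 6 genes, young in blue and old in red, with the mean as a black line and the limit for an expressing cell (2) as a dotted line. Sqstm1 values in young cells gather at 0 (median 0) while the old median is 2.07, Map1lc3b values shift upward (medians 7.63 and 9.80), and Atg4c reaches 9.65 in young but 7.57 in old cells.

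Among the proteases that trim and release LC3 and GABARAP proteins, *Atg4c* (chr4:99189159-99297258) was lower in the old cells. Its log2(CPM + 1) in young cells had a lowest value of 0, a median of 1.35 and a highest value of 9.65. In old cells the lowest value was 0, the median 0.96 and the highest 7.57. The medians lay close together below the limit for expressing, and the ages differed in the cells above it. *Atg4c* was expressed in 21 young cells (40.4%, 27.01 to 54.90) and 7 old cells (11.3%, 4.66 to 21.9), and these counting intervals do not overlap. The level fell from 2.51 to 1.21, a difference of -1.30. Its summed reads were 6138 in young and 336 in old cells (95% exact Poisson intervals 5985 to 6294 and 301 to 374, for counting error only), with 34.8% of the young reads in 1 cell, and the log2 ratio of summed counts was -3.98. Reads of *Atg4c* were nevertheless counted in 49 young and 51 old cells. With every cell thinned to 250000 reads, a depth at which a single read passes the limit for expressing, the gene was expressed in 22 young and 20 old cells and its difference was -0.92.

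None of the related proteases reached the limit. *Atg4b*, the main protease of the family, had levels of 1.97 and 1.76 and was expressed in 15 young and 16 old cells. *Atg4a* was expressed in 5 young and 3 old cells (levels 0.57 and 0.32) and *Atg4d* in 3 and 4 (0.37 and 0.52). With young levels below 1, *Atg4a* and *Atg4d* could not have fallen by 1 as *Atg4c* did.

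No gene of the conjugation machinery reached the limit on the main scale. *Atg7*, the activating enzyme of both ubiquitin-like cascades, had levels of 1.61 and 1.85 with 15 young and 19 old expressing cells. *Atg5*, the acceptor of ATG12, had levels of 2.56 and 2.21 with 18 and 21 expressing cells, and *Atg12* had 2.11 and 2.00 with 17 and 18. *Atg3*, the enzyme that passes LC3 to lipid, had levels of 1.49 and 1.40 with 14 and 13 expressing cells. *Atg10*, its counterpart for ATG12, had 0.76 and 0.92 with 6 and 8. For *Atg16l1*, the scaffold that places the conjugation at the membrane, levels were 0.87 and 1.21 with 7 and 14 expressing cells, and for *Atg16l2* they were 0.71 and 0.66 with 8 and 5. Differences of these 7 genes lay between -0.35 (*Atg5*) and 0.35 (*Atg16l1*). With summed counts, in which single cells with many reads weigh most, *Atg16l2* reached 3.5002, *Atg10* 2.51 and *Atg7* 1.26, and 66.3% and 72.5% of the old reads of *Atg16l2* and *Atg10* lay in 1 cell each. Without cells expressing a cycle gene *Atg12* was at 1.19 and *Atg7* at 0.89.

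None of the 6 genes of initiation reached the limit on the main scale. The sizes of their differences varied with the setting, and the directions of *Ulk1* and *Rb1cc1* changed in some settings. *Ulk2* and *Ulk1*, the kinases of the complex, had differences of 0.73 (levels 2.59 and 3.32, 22 young and 34 old expressing cells) and 0.15 (2.18 and 2.33, 16 and 26 cells). *Ulk2* passed the limit with a pseudocount of 0.1 CPM (1.497), with summed counts (1.46) and without cells expressing a cycle gene (1.16). *Ulk1* turned below 0 with summed counts (-0.86), without cells expressing a cycle gene (-0.30) and without the cells whose sex-linked genes went against their age (-0.11). *Rb1cc1*, which encodes the scaffold FIP200, was the most widely expressed gene of the complex, in 27 young and 36 old cells, at levels of 3.53 and 4.11. The *Rb1cc1* difference of 0.57 became -0.18 over all young and old cells of the table and -0.08 under the wider quality limits. *Atg13*, the adaptor between kinase and scaffold, had levels of 0.61 and 1.13 in 5 and 11 expressing cells, and its difference of 0.51 was 1.01 with the lower pseudocount and 1.68 with summed counts. *Atg101*, its partner, had 1.72 and 1.88 in 12 and 16, and *Ambra1*, an upstream regulator of the ULK and Beclin 1 complexes, had 0.68 and 1.19 in 5 and 12.

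Of the 5 genes of the class III PI3 kinase none reached the limit on the main scale, and *Uvrag* (1.65), *Pik3r4* (1.63) and *Atg14* (1.23) passed it with summed counts. *Uvrag* and *Pik3r4*, the first a partner of Beclin 1 at endosomes and late autophagosomes and the second the regulatory subunit VPS15, had differences of 0.75 (levels 0.60 and 1.35) and 0.59 (0.71 and 1.30), each with 6 young and 13 old expressing cells. *Becn1*, which encodes Beclin 1, had levels of 1.67 and 1.26, a difference of -0.41 that was 0.18 with summed counts, and 14 young and 11 old expressing cells. *Pik3c3*, the catalytic subunit VPS34, had levels of 1.59 and 1.67 in 11 and 16 cells, and its difference of 0.09 turned below 0 in 4 of 10 other settings (lowest -0.80, with summed counts). *Atg14*, which directs the kinase to autophagosomes, had 1.71 and 1.98 in 17 and 18 cells.

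For membrane supply, *Atg2b*, a lipid transfer protein, had the largest difference, 0.79, with levels of 2.19 and 2.97 and 17 young and 23 old expressing cells. This difference was 0.11 in the 47 young and 51 old cells with at least 1000000 counted reads. Its relative *Atg2a* had levels of 0.97 and 0.77 in 9 and 8 cells. *Atg9a*, the transmembrane protein of the vesicles that seed the membrane, had 1.35 and 1.42 in 11 and 13 cells. *Wipi2*, a reader of the PI3 kinase product that recruits ATG16L1, had 1.99 and 1.54 in 15 and 17 cells, and *Wipi1* was expressed in 6 and 5 cells (levels 0.60 and 0.51).

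At the lysosome the *Lamp* genes diverged. *Lamp2* (chrX:38399647-38456460) encodes a membrane protein needed for fusion with autophagosomes. Its log2(CPM + 1) ran in young cells from 0 through a median of 4.18 to 11.52. In old cells it ran from 0 through a median of 7.06 to 11.99. The cells overlapped fully, and the middle of the old cells lay higher. *Lamp2* was expressed in 33 young cells (63.5%, 48.96 to 76.38) and 45 old cells (72.6%, 59.8 to 83.1), and its level rose from 4.71 to 5.72. The difference, 1.002, stood at the limit and reached it in 1 of 10 other settings (range 0.75 to 1.03) and after leaving out 53 of the 114 cells in turn.

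*Lamp1* (chr8:13159161-13175338) stood just outside the limit on the other side. In young cells its log2(CPM + 1) ran from 0 through a median of 1.59 to 10.20. In old cells the lowest value and the median were 0 and the highest was 10.32. High values occurred at both ages, and more of the old cells had no counted read. *Lamp1* was expressed in 24 young cells (46.2%, 32.2 to 60.5) and 20 old cells (32.3%, 20.9 to 45.3), and its level went from 3.00 to 2.01, a difference of -0.99. It passed the limit in 6 of 10 other settings (range -1.68 to -0.60) and after leaving out 47 of the 114 cells in turn. The smallest value, -0.60, came without the 2 young and 8 old cells whose sex-linked genes, at low values, went against the rest of their age. Cells with *Lamp2* but no *Lamp1* numbered 18 of 52 young and 29 of 62 old, and those with *Lamp1* but no *Lamp2* 9 and 4.

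*Tfeb*, which encodes a master regulator of lysosomal and autophagy genes, was near the floor. It was expressed in 3 young cells and in 0 of 62 old ones, which with a floor of 3 cells allows a share of up to 4.84% (exact 95% upper limit 5.78%). No read of *Tfeb* was counted in any old cell, against 454 in the young cells, of which 61.2% were in 1 cell.

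**Figure D3:**
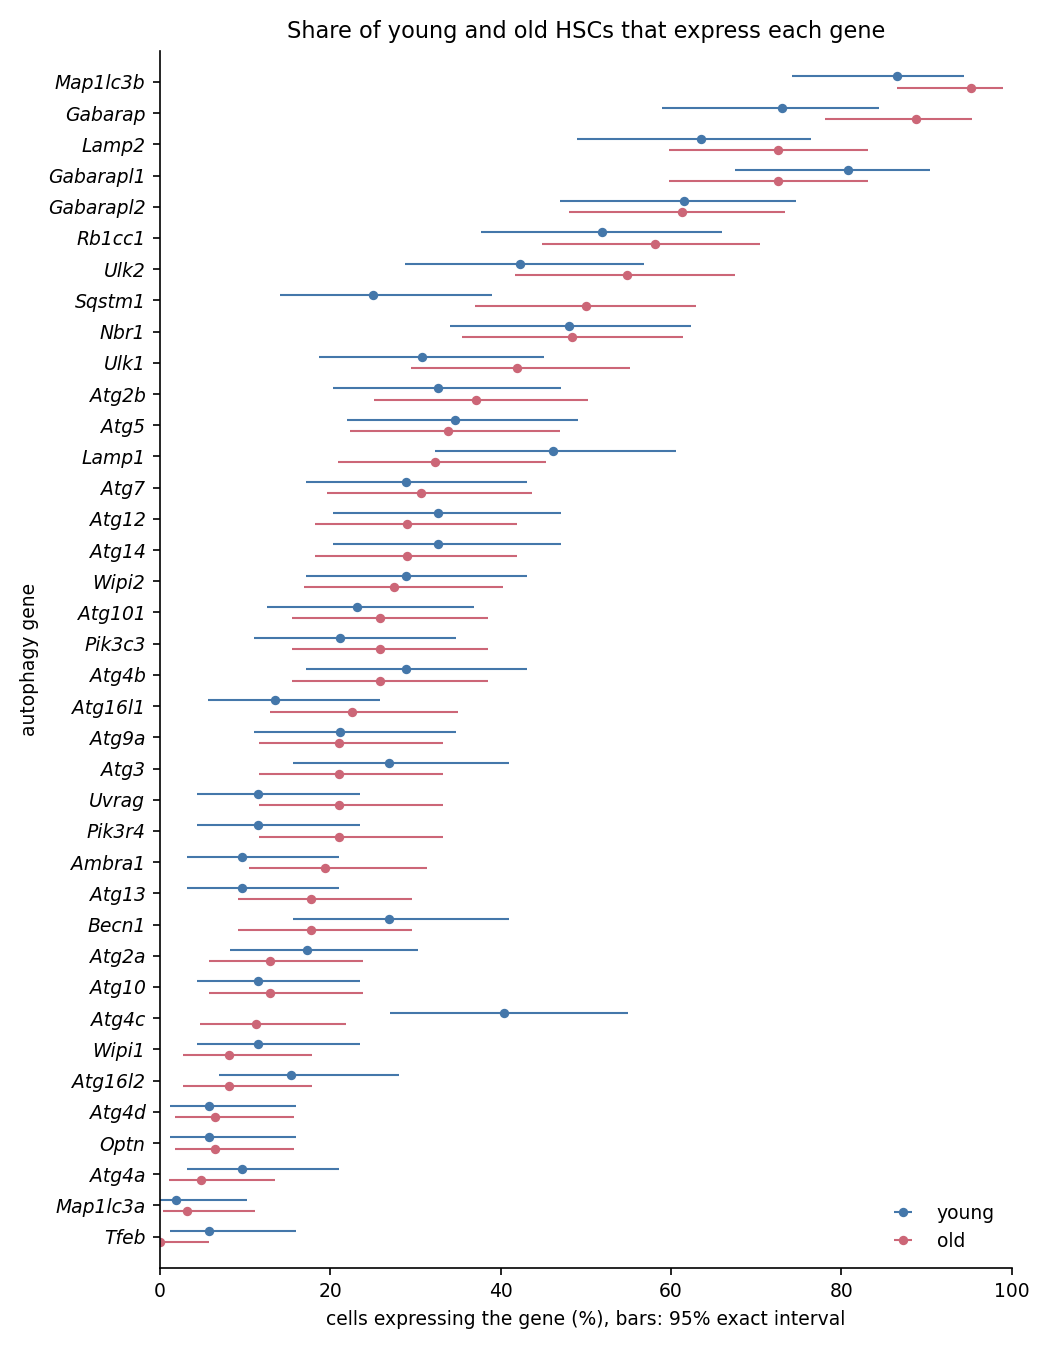
Percentage of young (blue) and old (red) cells that expressed each of the 38 genes, ordered by the old share, with 95% exact intervals for counting error as bars. Map1lc3b leads at 86.5% and 95.2%, most pairs of intervals overlap, and the interval of Atg4c in young cells (27.01 to 54.90) lies above that in old cells (4.66 to 21.9).

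Single cells expressed only part of the machinery, and a similar part of all genes. Of the 15181 genes measured, the median was 4115.5 expressed per young and 3901.5 per old cell. The median cell expressed 11 of the 38 genes at both ages, and young cells ranged from 5 to 19 genes and old cells from 6 to 25. The number followed how many genes of any kind a cell expressed (young Pearson r = 0.58 and Spearman rho = 0.55 over 52 cells, old r = 0.71 and rho = 0.61 over 62 cells), which share library and depth with it. The old cell with 25 of the 38 genes was also the cell with most genes expressed in total, 6267, and had only 289282 reads, so that 1 read (3.46 CPM) passed the limit for expressing there. The number of autophagy genes expressed went down with counted reads (Spearman rho = -0.37 over 52 young and -0.25 over 62 old cells). At 250000 reads per cell the medians were 12 in young and 13 in old cells.

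**Figure D4:**
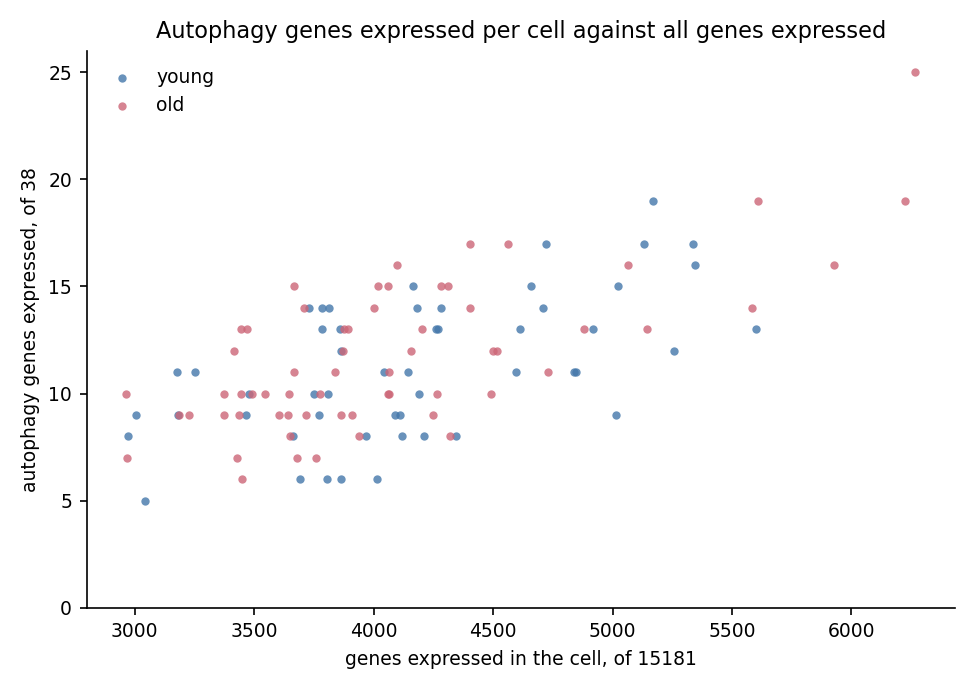
Autophagy genes expressed in a cell (of 38, vertical) against all genes expressed in it (horizontal), with a point per kept cell, young in blue and old in red. The ages occupy the same band with a median of 11 each, and the number rises with the total, up to 25 in the old cell with 6267 genes.

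All parts of a complex were seldom found in the same cell. The ULK complex (*Ulk1* or *Ulk2* with *Rb1cc1*, *Atg13* and *Atg101*) was complete in 1 young cell (1.92%, 0.0487 to 10.3) and 1 old cell (1.61%, 0.0408 to 8.66), with a median of 1 part expressed per young and 2 per old cell. The kinase core (*Becn1*, *Pik3c3* and *Pik3r4*) and the conjugation set (*Atg3*, *Atg5*, *Atg7*, *Atg12* and *Atg16l1*) were complete in 0 of 52 young and 0 of 62 old cells, which allows shares of up to 5.77% and 4.84% by the same floor (exact 95% upper limits 6.85% and 5.78%). No part of the kinase core was expressed in 26 young and 30 old cells. At this depth and capture a transcript that was not counted is not shown to be absent. Between cells, the 6 most widely expressed genes (*Rb1cc1*, *Gabarap*, *Gabarapl1*, *Gabarapl2*, *Map1lc3b* and *Lamp2*, each in at least 50% of kept cells) varied with little relation to each other. Over their 15 pairs Spearman's rho lay between -0.26 and 0.21 in young and between -0.23 and 0.27 in old cells, with medians of 0.00 and 0.04.

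Genes around the core pathway were grouped into 7 lists, and of each list the genes that reached the limit are given, up to 5 by size. The shares are to be read against the 3.91% of all genes that were higher and the 4.49% that were lower. They are also to be read against the genes expressed in at least 10% of kept cells, as most genes of each list were. Of those, 6.24% were higher and 6.98% lower. Of 22 other autophagy genes measured, 3 were higher (13.6%) and none lower. *Vmp1*, an endoplasmic reticulum protein of autophagosome formation, rose from 6.70 to 8.99 and was expressed in 40 young and 59 old cells, and its span in RefSeq holds the microRNA gene *Mir21a*, whose reads could be counted on it. *Sh3glb1*, which binds the Beclin 1 complex through UVRAG, rose from 3.27 to 4.88 (27 and 47 cells), and *Tollip*, a receptor of ubiquitinated cargo, rose from 1.30 to 2.53 (12 and 19 cells). The median of the list was 0.22, near the 0.15 of the set.

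Of 38 lysosomal enzyme and membrane genes measured, 6 were higher (15.8%) and 1 lower (2.63%), with a median of 0.13. The number higher was 4 over all young and old cells of the table and 9 without cells expressing a cycle gene. The proteases *Ctsd* (3.77 to 5.49, 26 and 45 cells), *Tpp1* (2.28 to 3.80, 17 and 32 cells), *Ctsl* (1.28 to 2.58, 11 and 24 cells) and *Ctsz* (1.36 to 2.60, 9 and 22 cells) rose together with the membrane protein *Cd63* (6.21 to 7.37, 44 and 54 cells). *Gusb*, which encodes beta-glucuronidase and lay outside the 5 largest, was the gene that fell (2.97 to 1.94, 22 and 18 cells), and it was chosen after its values were seen. Macrophages are rich in these enzymes, and of 5 macrophage and monocyte markers measured none was higher by 1. Their summed level ran from 0 to 1811 CPM in young cells (median 105) and from 0 to 1564 in old cells (median 107). *C1qa* was expressed in no cell, *C1qb* in 2 young and 1 old, and *Lyz2* in 43 and 43. Of 10 platelet and megakaryocyte markers only *Selp* reached the limit (5 young and 42 old cells), and 7 of the 10 lay above and 3 below 0. The summed level of the 10 ran from 0 to 1776 CPM in young cells (median 60.2) and from 0.64 to 4883 in old cells (median 548). Of 6 granulocyte markers only *Prtn3* reached the limit (38 young and 59 old cells). The median summed level was 57.3 CPM in young (0 to 796) and 186 in old cells (0.379 to 1013). *Prtn3* makes up most of that sum, at median log2(CPM + 1) of 5.77 in young and 7.45 in old cells. *Elane*, *Mpo*, *S100a8*, *S100a9* and *Ngp* were each expressed in at most 4 cells of an age. Of 5 dendritic cell markers *Clec9a* reached it (1 and 11 cells), with a median sum of 34.2 CPM in young (17.7 to 876) and 36.7 in old cells (9.44 to 1221). That median sum is mostly *Xcr1*, expressed in all 52 young and 62 old cells at median log2(CPM + 1) of 5.02 and 4.96. *Zbtb46* had no read. The part of these markers in the differences of the autophagy and lysosomal genes was not tested.

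In the list of 16 fusion genes, *Rab7*, the late endosome GTPase, rose from 3.77 to 5.22 (27 and 42 cells) and *Vps41*, a subunit of the HOPS tether, from 1.83 to 3.35 (13 and 28 cells), which is 12.5% of the list, none was lower, and the median was 0.20. Of 16 V-ATPase subunit genes, which acidify the lysosome, only *Atp6ap1* (X-linked, 2.40 to 3.78) was higher (6.25%) and none was lower, with a median of -0.04. Over all young and old cells measured, 0 V-ATPase genes were higher and 2 lower. Of 15 mitophagy genes 1 was higher (6.67%) and 3 were lower (20%), with a median of -0.31. The mitophagy receptor *Bnip3l* rose from 5.32 to 6.54 (38 and 52 cells). The receptor *Fundc1* (X-linked, 3.21 to 2.03), the mitochondrial channel *Vdac1* (4.92 to 3.80) and the import subunit *Tomm7* (5.77 to 4.49) fell. The mitophagy genes past the limit changed with the setting. Over all young and old cells of the table *Bnip3l* was higher, and *Phb2* and *Tomm7* were lower. Without cells expressing a cycle gene none was higher, and *Fundc1*, *Phb2* and *Tomm7* were lower. With summed counts *Bcl2l13* was higher, and *Bnip3*, *Fundc1* and *Htra2* were lower.

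Of 33 genes of mTORC1, AMPK and nutrient sensing, only *Mlst8*, a subunit of the mTOR complexes, was higher (0.14 to 1.22, 1 young and 12 old cells). It met the minimum of 10% of cells through the old cells. None was lower, and the median was 0.08. Closest short of the limit were *Rptor* at -0.96 (11 young and 1 old cell) and *Deptor* at 0.93 (17 and 26 cells). *Mlst8* alone is 3.03% of the list, close to the 3.91% of all genes that were higher. The counts were 5 higher without cells expressing a cycle gene, 6 higher and 4 lower with summed counts, and 0 with thinning. Of 10 genes of the MiT/TFE and FoxO group, which includes *Tfeb*, none was higher, and the median was -0.09. *Flcn*, which controls the lysosomal recruitment of the MiT/TFE factors, was lower (2.30 to 1.26, 16 and 12 cells, 10% of the group). *Tfe3* was expressed in 4 young and 7 old cells, and *Foxo3*, a known driver of autophagy genes in HSCs, in 2 and 5.

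**Figure D5:**
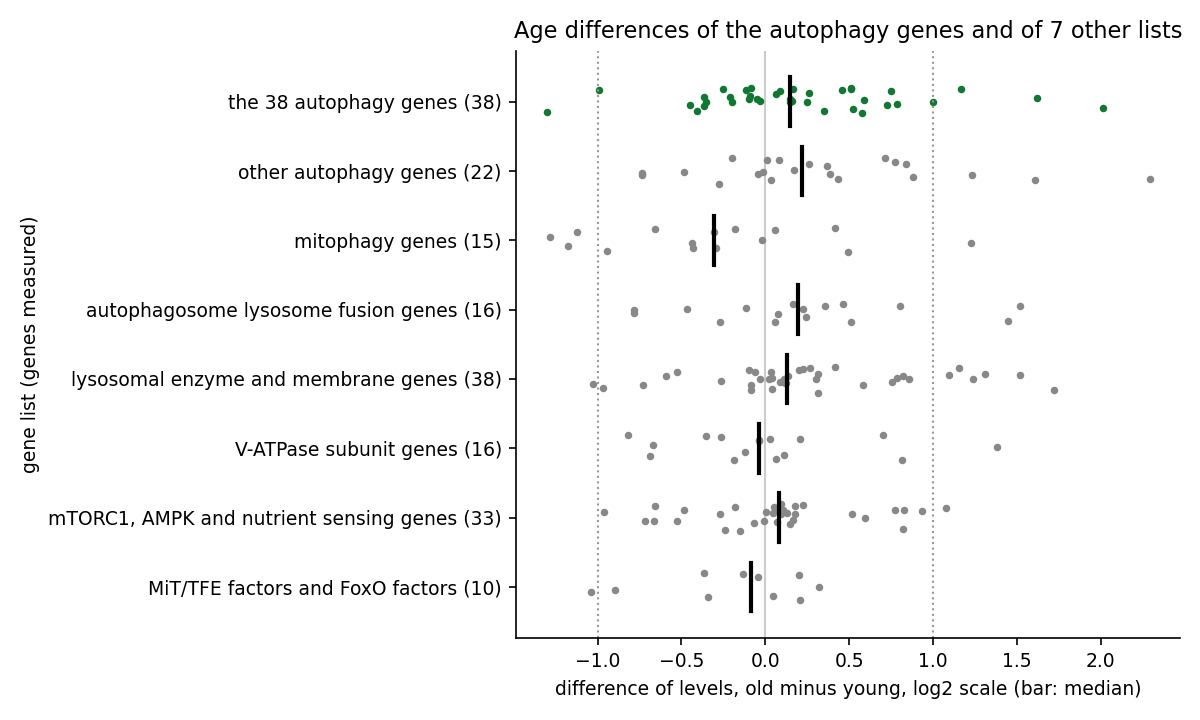
Difference of levels, old minus young, on the log2 scale for the 38 autophagy genes (green) and the measured genes of 7 other lists (grey), with the median as a black bar and dotted lines at -1 and 1. The medians of the lists lie between -0.31 (mitophagy genes) and 0.22 (other autophagy genes), and single genes such as Vmp1 and Sqstm1 (2.01) lie furthest to the right.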

How the data were processed

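Single-cell RNA sequencing libraries of HSCs from 1 young and 1 old mouse were examined. The authors mapped the reads with TopHat2 2.0.10 to mm10 (GRCm38), kept 1 alignment per read and used rpkmforgenes with RefSeq gene models. The deposited values are raw read counts. No molecular identifiers were used, and no strand setting is given for the counting. Of 38 genes, 6 overlap another gene of the table.

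The 114 cells of 135 that the study lists as passing its limits on reads, mitochondrial share and genes were used. CPM, levels, differences and shares were computed as given in the results. The limit for a difference was 1 on the log2 scale, and members were also read against genes expressed in at least 10% of kept cells. Because each age is 1 mouse, no test was made. No doublet caller was run. Shares have 95% exact Clopper-Pearson and summed counts 95% exact Poisson intervals, and a count of 0 allows up to 3 cells of those examined. Exon lengths were merged from GENCODE vM21 (all 38 genes matched), and positions and promoters are from RefSeq GRCm38.p6. Every gene of the set is named with its values, and of each list the genes past the limit among those expressed in at least 10% of cells, at most 5 by size. A gene absent under its current symbol was looked up under its older symbols. The members and lists were chosen with earlier results of these data known.

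Alternatives were the cells used (all 135, wider limits, at least 1000000 reads, no cell cycle gene, sex-linked genes in accord with the age), a pseudocount of 0.1 CPM, summed counts, thinning to 250000 reads, scaling by edgeR 4.0.16 (TMMwsp) and by DESeq2 1.42.0 (poscounts), no minimum of expressing cells, and limits for expressing of 1 read or log2(CPM + 1) above 3. Leaving out each cell in turn was added after the data had been seen. A difference was taken as moved when its ratio changed by over 1.5 times, and a share when it left its interval. The calculation of differences was checked on simulated counts, for the direction of changed genes and the median of unchanged genes. The other steps were not simulated. Python 3.11.15, numpy 2.4.6, pandas 2.3.3, scipy 1.17.1 and R 4.3.3 were used.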

Additional observations from a re-analysis of the deposited data

How the results depend on the processing

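No paired analysis was possible because each age is 1 mouse and no test between the ages was made. The differences of *Sqstm1* (1.58 to 3.44), *Map1lc3b* (0.83 to 2.02), *Gabarap* (0.64 to 2.25) and *Atg4c* (-3.98 to -0.92) kept their direction under 10 settings, and leaving out each of the 114 cells in turn ended none of these 4 calls. The number of genes higher by at least 1, 4 in the main setting, was 2 under the wider quality limits (*Map1lc3b* and *Sqstm1*) and 11 with summed counts (*Sqstm1* and 10 genes below it in the main setting, while *Map1lc3b*, *Gabarap* and *Lamp2* fell below it). It was 6 with a pseudocount of 0.1 CPM, with *Atg13*, *Ulk2* and *Uvrag* added and *Lamp2* lost, and 5 without cells expressing a cycle gene, with *Ulk2* and *Atg12* added and *Lamp2* lost. It was 3 to 4 when single cells were left out. The number lower by at least 1, which was 1, became 2 (*Atg4c* and *Lamp1*) under the wider limits, at 1000000 reads or more, without cells expressing a cycle gene, with a pseudocount of 0.1 CPM, with summed counts and with poscounts factors, became 0 with thinning, and was 1 to 2 when single cells were left out. The median difference of the autophagy genes that met the minimum of 10% stayed between 0.13 and 0.49. Counting any read as expression put the median number of genes per cell at 18 in young and 18 in old cells in place of 11. Summed counts moved 18 of the 37 single differences they could give by over 1.5 times. They also moved the median of the fusion genes that met the minimum from 0.23 to 0.82 and that of the MiT/TFE and FoxO genes from -0.24 to -1.001. In the cells that expressed no cell cycle gene, *Atg12* reached 1.19, *Atg7* 0.89 and *Nbr1* -0.49. Of 588 alternative values for shares of expressing cells, 59 left their intervals, 45 of them when a single read counted as expression. Thinning to 250000 reads moved 1 of 84 shares and the minimum of 1000000 reads moved 2. With 1 mouse per age no comparison between the ages has a replicate check.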
